A study of Homo sapiens with 4 samples.

Results

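The cytosolic ribosomal protein genes were examined in the colorectal carcinoma line HCT116, an established human cell line, after treatment with HJ-4, a synthetic amide derived from piperine. The genes were taken by symbol from the deposited count table after its Ensembl identifiers had been matched to GENCODE v44 on GRCh38. All protein-coding genes named RPL or RPS with a plain number, with or without a final A or X, were included together with RPLP0, RPLP1, RPLP2 and RPSA. The rule gave 77 genes of the 20263 in the table, 46 of the large subunit and 31 of the small subunit. It used names and no measured value. All 77 passed the filter on low counts.

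RNA was sequenced from 2 libraries of cells given HJ-4 at 32 µM over 24 h and from 2 libraries of cells given the vehicle, DMSO at 0.1%, over the same time. Both groups were HCT116 cells labelled as wild type, and all libraries came from this single line. A figure legend of the study gives a lower HJ-4 dose for the transcriptome than its methods and the labels, whose dose is used here. The study's methods describe biological replicates in triplicate, whereas the labels of the 2 libraries per group name no separate cultures. The p-values measure the spread between these libraries. Total counts were 34359889 and 33762230 with HJ-4 and 31120459 and 29769568 with DMSO. Mitochondrially encoded genes took 6.01% and 6.41% of the counts with HJ-4 and 6.59% and 7.73% with DMSO. Of the epithelial markers, EPCAM, KRT8, KRT18, KRT19, CDH1 and CDX2 were detected in each library, and VIL1 had at most 4 counts. DCN, LUM, COL1A2 and CD3E had 0 counts in all 4 libraries and COL3A1, CD14, PTPRC, PECAM1 and CDH5 at most 8. Levels are given as CPM, counts scaled to the effective total of each library. COL1A1 was at 58.2 and 60.8 CPM with HJ-4 and 62.6 and 59.4 CPM with DMSO, CD68 at 46.0 and 50.4 CPM with HJ-4 and 40.0 and 33.9 CPM with DMSO, and VWF was at 1.38 CPM or less.

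Each ribosome is built from a large and a small subunit, and most of their proteins are needed in equal numbers. The small subunit decodes the mRNA, whereas the large subunit joins the amino acids and leads the growing chain out through its exit tunnel. Most mRNAs of ribosomal proteins begin with a cytosine followed by an unbroken run of pyrimidines, the terminal oligopyrimidine (TOP) tract, through which LARP1 and the kinase complex mTORC1 regulate their translation and stability. When ribosome assembly fails, free RPL5 and RPL11 bind MDM2 and thereby raise p53, so that these genes are often studied beside p53 responses.

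The start of the mRNA was read from the RefSeq windows of GRCh38.p14, which held 62 of the 77 genes. The tract was counted where the annotated start was C and at least the next 4 letters were C or T, on the strand of the gene only. It was found in 42 of the 62 genes, or 67.7%, against 5.31% of the 11120 tested genes that had a window and 4.04% of all 27305 windows. For 55 of the 62 genes the RefSeq start was the start of the canonical GENCODE transcript. RPS19, RPS3, RPLP1, RPS6 and RPL41 are shown as genes with the tract, of 5 to 11 letters. RPS28 and RPS4X are shown because they rank near the top of the small subunit and have no tract at the annotated start. Each window runs from 10 bases before the start to 20 bases from it, and capitals mark the tract.
RPS19 (chr19:41860245-41860274, plus strand): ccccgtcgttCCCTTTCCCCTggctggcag
RPS3 (chr11:75399508-75399537, plus strand): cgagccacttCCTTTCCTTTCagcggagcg
RPLP1 (chr15:69452808-69452837, plus strand): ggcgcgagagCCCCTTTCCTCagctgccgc
RPS6 (chr9:19380217-19380246, minus strand): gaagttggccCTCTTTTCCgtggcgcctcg
RPL41 (chr12:56116623-56116652, plus strand): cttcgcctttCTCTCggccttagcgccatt
RPS28 (chr19:8321486-8321515, plus strand): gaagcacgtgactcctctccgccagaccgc
RPS4X (chrX:72277229-72277258, minus strand): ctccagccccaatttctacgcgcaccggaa
The tract spans 11 letters in RPS19, RPS3 and RPLP1, 9 in RPS6 and 5 in RPL41, and the longest, in RPL39, spans 19. The median log2 fold change (HJ-4 over DMSO) was 0.04 in the 42 genes with the tract and 0.09 in the 20 without it. The rule reads only from the annotated start itself, and in RPS28 a run of C and T begins at the next base. The tract is a description of the annotated start, and whether these starts are used in HCT116 cells was not tested.

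The levels of cytosolic ribosomal protein genes with HJ-4 were close to those with DMSO. By edgeR's quasi-likelihood test over 14044 genes, with an adjusted p under 0.05 as the threshold, 0 of the 77 were called. In the same test, 0.0427% of all genes were called higher with HJ-4 and 0.00712% lower. The smallest adjusted p among the 77 was 0.17, for RPS19. With p under 0.05 before adjustment, RPS19 and RPS28 (2 of the 77) were higher with HJ-4 and 0 were lower, against 7.93% of all genes in each direction. DESeq2 called 1 of the 77 higher (RPS19) and 0 lower, against 2.58% of all genes higher and 1.95% lower. The 95% intervals of the 77 log2 fold changes lay between -0.67 and 0.75. Of the 77 estimates, 72, or 93.5%, were under 0.2 in size, as were 56.2% of all genes tested. The genes tested include some with far fewer counts than these 77, and the shares were not matched for level. The median log2 fold change of the 77 genes was 0.05, with 56 positive and 21 negative, beside a median of 0.00 over all genes tested.

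**Figure D1:**
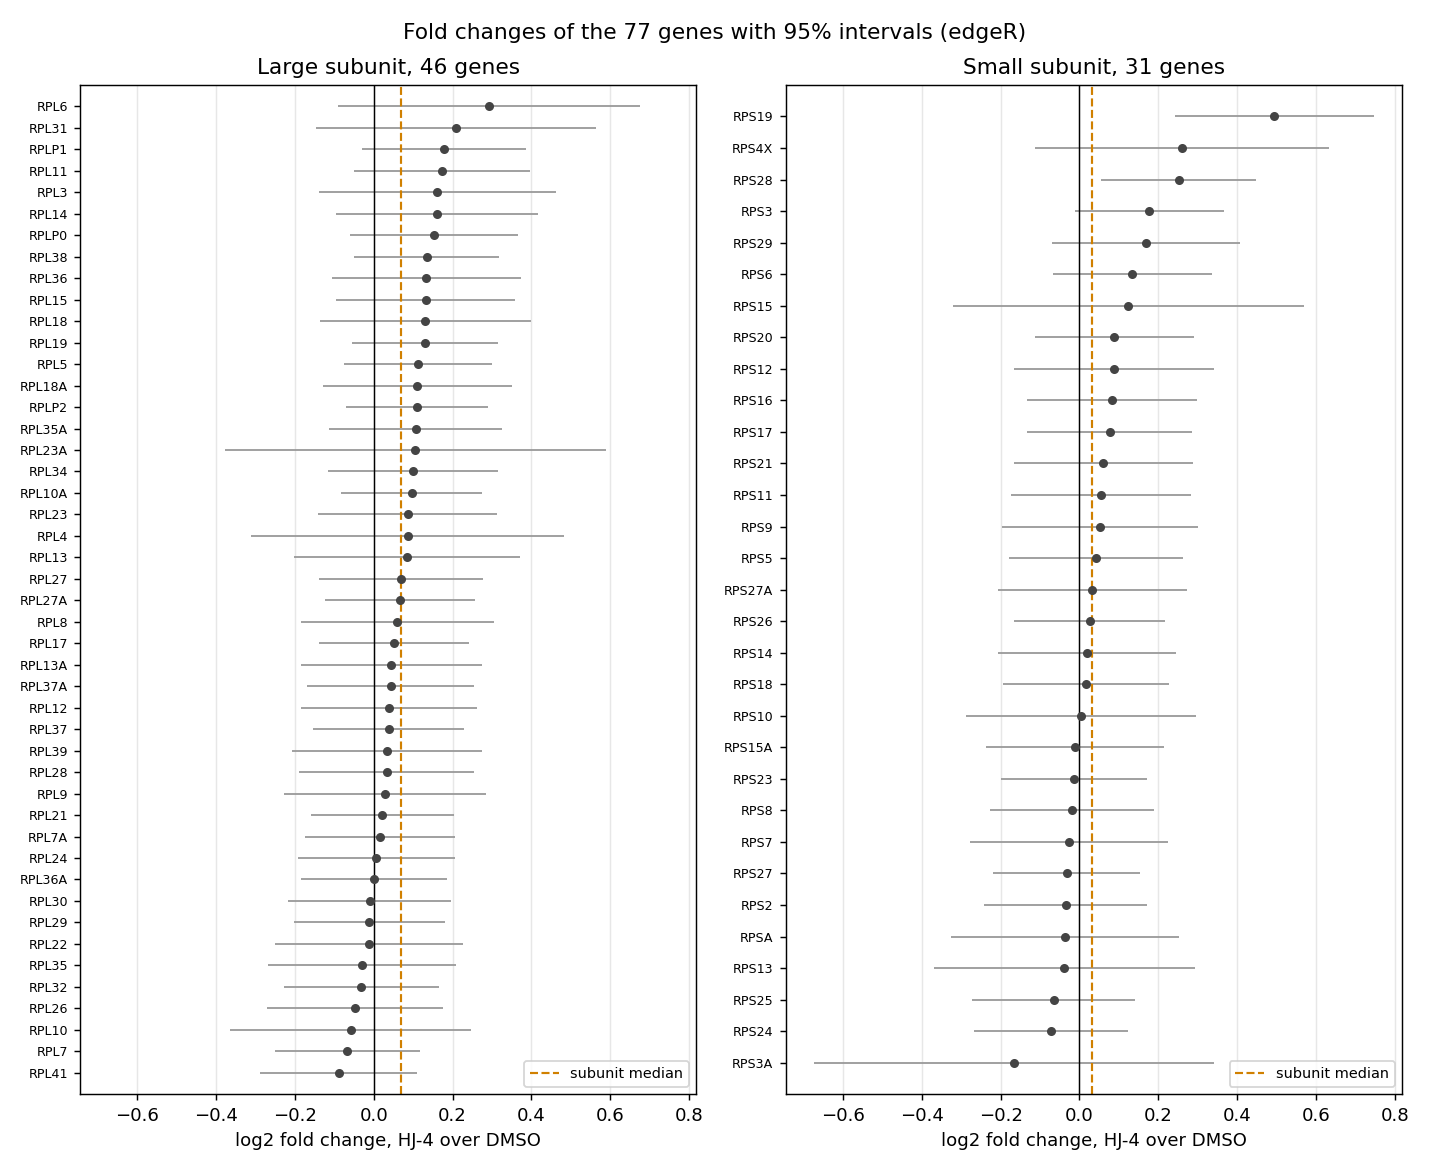
Log2 fold change (HJ-4 over DMSO) of each of the 77 genes, large subunit on the left and small subunit on the right, with 95% intervals from edgeR and the subunit median as a dashed line. Intervals of all genes but RPS19 and RPS28 include 0, and the medians lie at 0.07 for the large and 0.03 for the small subunit.

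The gap between the DMSO libraries was larger than most of these differences. The HJ-4 libraries both exceeded the DMSO libraries in 21 of the 77 genes and were both below them in 3, against 25.2% and 25.6% of all genes tested. On the log2 CPM scale the median gap between replicates was 0.05 with HJ-4 and 0.14 with DMSO, and the median difference between the groups was 0.07. For 60 genes the difference was smaller than the gap between the DMSO libraries, and for 29 it was smaller than that between the HJ-4 libraries. For 14 genes the difference exceeded the gaps of both groups. DMSO replicate 2 lay below DMSO replicate 1 for 64 of the 77 genes, and it was also the library with the highest mitochondrial share. The part of that share in these differences was not tested. Without DMSO replicate 2 the median of the 77 genes was -0.01, and without DMSO replicate 1 it was 0.11.

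**Figure D2:**
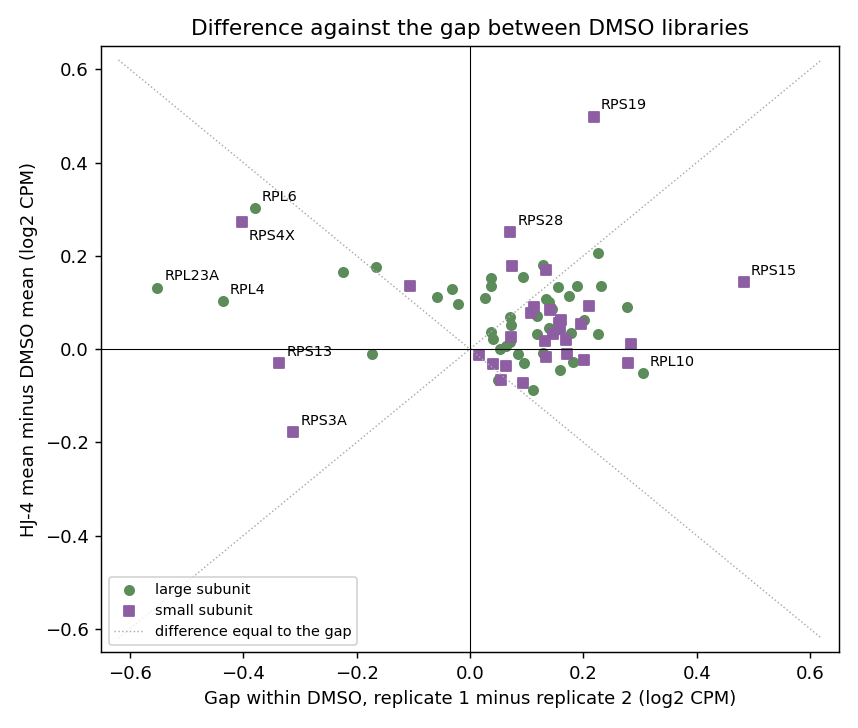
Difference between the HJ-4 and DMSO means against the gap between the DMSO libraries (replicate 1 minus replicate 2), both in log2 CPM, with a point for each of the 77 genes and dotted lines where difference and gap are equal in size. RPS19 lies well above the dotted lines, whereas RPL23A, RPL4, RPS4X, RPL6, RPS13, RPS3A, RPS15 and RPL10 have DMSO gaps over 0.3.

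Summed over the family, ribosomal protein genes took 8.88% and 9.01% of all counts in the HJ-4 libraries and 8.97% and 8.57% in the DMSO libraries. The groups overlapped. The mean was 8.95% ± 0.09 with HJ-4 and 8.77% ± 0.28 with DMSO (SD, n = 2 each), a difference of 0.18 percentage points. It was 0.38 without DMSO replicate 1 and -0.017 without DMSO replicate 2. Genes of the large subunit took 5.42% and 5.54% with HJ-4 and 5.42% and 5.23% with DMSO. Those of the small subunit took 3.47% and 3.47% with HJ-4 and 3.55% and 3.34% with DMSO, so that the HJ-4 values lay between the DMSO values.

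The large subunit was set against the small one within each library. The log2 ratio of summed counts was 0.64 and 0.67 in the HJ-4 libraries and 0.61 and 0.65 in the DMSO libraries. HJ-4 replicate 1 lay below DMSO replicate 2, so the groups overlapped here too. The difference between the group means was 0.03 on the log2 scale, beside a pooled SD of 0.02 between replicates, and it was 0.013 and 0.048 without DMSO replicate 1 or 2, 0.046 and 0.015 without HJ-4 replicate 1 or 2, and 0.0022 when the 3 most abundant genes of each subunit were left out. In the large subunit 36 of 46 log2 fold changes were positive, with a median of 0.07, and in the small subunit 20 of 31, with a median of 0.03. The HJ-4 libraries both exceeded the DMSO libraries in 14 genes of the large and 7 of the small subunit, and were both below them in 2 and 1. The 14 of 46 and the 7 of 31 are near the 25.2% of all genes tested that were above. The 2 and the 1 are far under the 25.6% that were below. The genes of a subunit were not tested as a set.

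**Figure D3:**
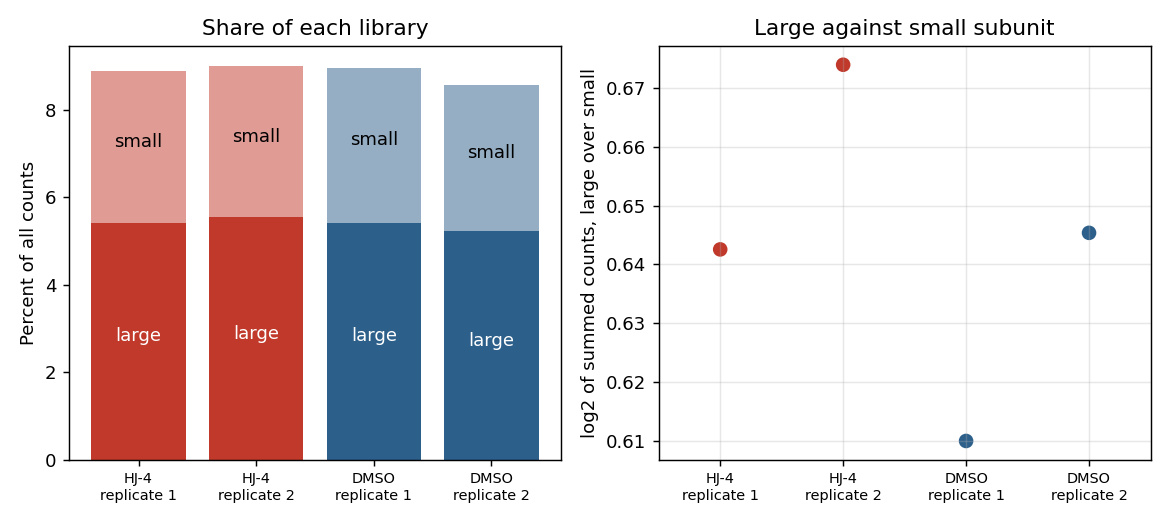
Left, percent of all counts in each library taken by genes of the large and the small subunit. Right, log2 of the summed counts of large over small subunit genes in each library (axis not from 0), where HJ-4 spans 0.64 to 0.67 and DMSO 0.61 to 0.65.

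RPS19 had the largest log2 fold change of the family. Its protein sits in the head of the small subunit, is required to mature the small subunit's RNA, and its gene is the one most often mutated in Diamond-Blackfan anaemia. RPS19 was at 976 and 977 CPM with HJ-4 and 745 and 641 CPM with DMSO. The HJ-4 libraries were nearly equal and both lay above both DMSO libraries. The log2 fold change was 0.49 (95% interval 0.24 to 0.75, adjusted p = 0.17 in edgeR), and its p ranked 335 among all genes tested. DESeq2 gave an adjusted p of 0.0018 for it, whereas the other alternatives gave 0.063 to 0.63. RPS19 lies on chromosome 19 of GRCh38 from 41860255 to 41872925 and overlaps no gene on the opposite strand in GENCODE v44.

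Of the other genes of the small subunit head, 12 of 13 had a positive estimate. RPS28, whose protein lies where the mRNA leaves the small subunit, was at 381 and 366 CPM with HJ-4 and 322 and 306 CPM with DMSO. Its log2 fold change was 0.25 (95% interval 0.05 to 0.45, adjusted p = 0.25 in edgeR). The groups did not overlap, but its span overlaps NDUFA7 and KANK3 on the opposite strand, and reads of the strands may not be told apart. RPS3, a protein of the mRNA entry site that also has a DNA-nicking activity, was at 748 and 757 CPM with HJ-4 and 683 and 648 CPM with DMSO. RPS29, a small zinc-binding protein of the head, was at 349 and 319 CPM with HJ-4 and 311 and 283 CPM with DMSO. Their log2 fold changes were 0.18 and 0.17 (adjusted p = 0.33 and 0.43 in edgeR). In the head genes RPS18, RPS25 and RPS27A the groups overlapped. RPS18, a protein at the contact with the large subunit, was at 2744 and 2794 CPM with HJ-4 and 2862 and 2612 CPM with DMSO. RPS25, which many viral entry sites need to start translation, was at 1018 and 938 CPM with HJ-4 and 1043 and 1004 CPM with DMSO. RPS27A, made as a fusion with ubiquitin, was at 884 and 808 CPM with HJ-4 and 869 and 785 CPM with DMSO. The median over the 14 head genes was 0.09.

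Genes of the small subunit's body and platform had a median log2 fold change of -0.01, with 7 of 17 positive. RPS6, the best known substrate of the S6 kinases downstream of mTORC1, was at 2080 and 2136 CPM with HJ-4 and 1851 and 1992 CPM with DMSO. The log2 fold change of RPS6 was 0.13 (95% interval -0.07 to 0.34, adjusted p = 0.45 in edgeR). RPS4X, an X-linked gene with counterparts on the Y chromosome, was at 1493 and 1502 CPM with HJ-4 and 1077 and 1424 CPM with DMSO. For each of these genes the HJ-4 values exceeded the DMSO values, though in RPS4X DMSO replicate 1 alone was far below the rest. The log2 fold change of RPS4X was 0.26 with all libraries, 0.07 without DMSO replicate 1 and 0.47 without DMSO replicate 2, and its span overlaps PIN4 on the opposite strand. RPS3A, which contacts the platform near the mRNA exit, had the lowest estimate of the family. It was at 790 and 561 CPM with HJ-4 and 676 and 840 CPM with DMSO, so that HJ-4 replicate 1 lay between the DMSO values and HJ-4 replicate 2 below both. Its log2 fold change was -0.17 (95% interval -0.67 to 0.34, adjusted p = 0.71 in edgeR), and it was 0.05 without HJ-4 replicate 2.

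The other body genes described had overlapping groups, with the exception of RPS24. RPS24, a protein mutated in some families with Diamond-Blackfan anaemia, was at 1007 and 1029 CPM with HJ-4 and 1106 and 1036 CPM with DMSO, so that its groups were nearly adjacent. RPS14, whose loss of a copy marks a subtype of myelodysplastic syndrome, was at 1033 and 1018 CPM with HJ-4 and 1072 and 953 CPM with DMSO. RPS2, a protein of the mRNA entry channel, was at 3859 and 4140 CPM with HJ-4 and 4190 and 4007 CPM with DMSO. For these genes the log2 fold changes ran between -0.07 and 0.02. RPSA, also known as the laminin receptor, was at 2497 and 2507 CPM with HJ-4 and 2814 and 2321 CPM with DMSO. The DMSO libraries of RPSA stood on both sides of a pair of nearly equal HJ-4 values.

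The stalk proteins RPLP0, RPLP1 and RPLP2, which recruit elongation factors to the large subunit, all had higher values in each HJ-4 library than in either DMSO library. The same held for 25.2% of all genes tested. RPLP0 was at 2653 and 2413 CPM with HJ-4 and 2306 and 2249 CPM with DMSO. RPLP1 was at 1685 and 1649 CPM with HJ-4 and 1538 and 1407 CPM with DMSO. RPLP2 was at 783 and 789 CPM with HJ-4 and 735 and 722 CPM with DMSO. The log2 fold changes were 0.15, 0.18 and 0.11, and none passed the adjusted threshold (adjusted p = 0.43, 0.36 and 0.48 in edgeR).

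RPL5 and RPL11 bring the smallest ribosomal RNA into the central protuberance of the large subunit and are the members that bind MDM2 when they are free. RPL5 was at 1303 and 1265 CPM with HJ-4 and 1163 and 1211 CPM with DMSO. RPL11 was at 1297 and 1308 CPM with HJ-4 and 1089 and 1221 CPM with DMSO. In each gene the HJ-4 values exceeded the DMSO values, as in 25.2% of all genes tested. The log2 fold change was 0.11 for RPL5 (95% interval -0.07 to 0.30) and 0.17 for RPL11 (95% interval -0.05 to 0.40). The adjusted p-values in edgeR were 0.49 and 0.39. RPL23, a further MDM2-binding protein, was at 810 and 867 CPM with HJ-4 and 830 and 751 CPM with DMSO, and RPL26, which has been described to bind the p53 mRNA, at 819 and 795 CPM with HJ-4 and 880 and 788 CPM with DMSO. The groups of RPL23 and RPL26 overlapped.

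**Figure D4:**
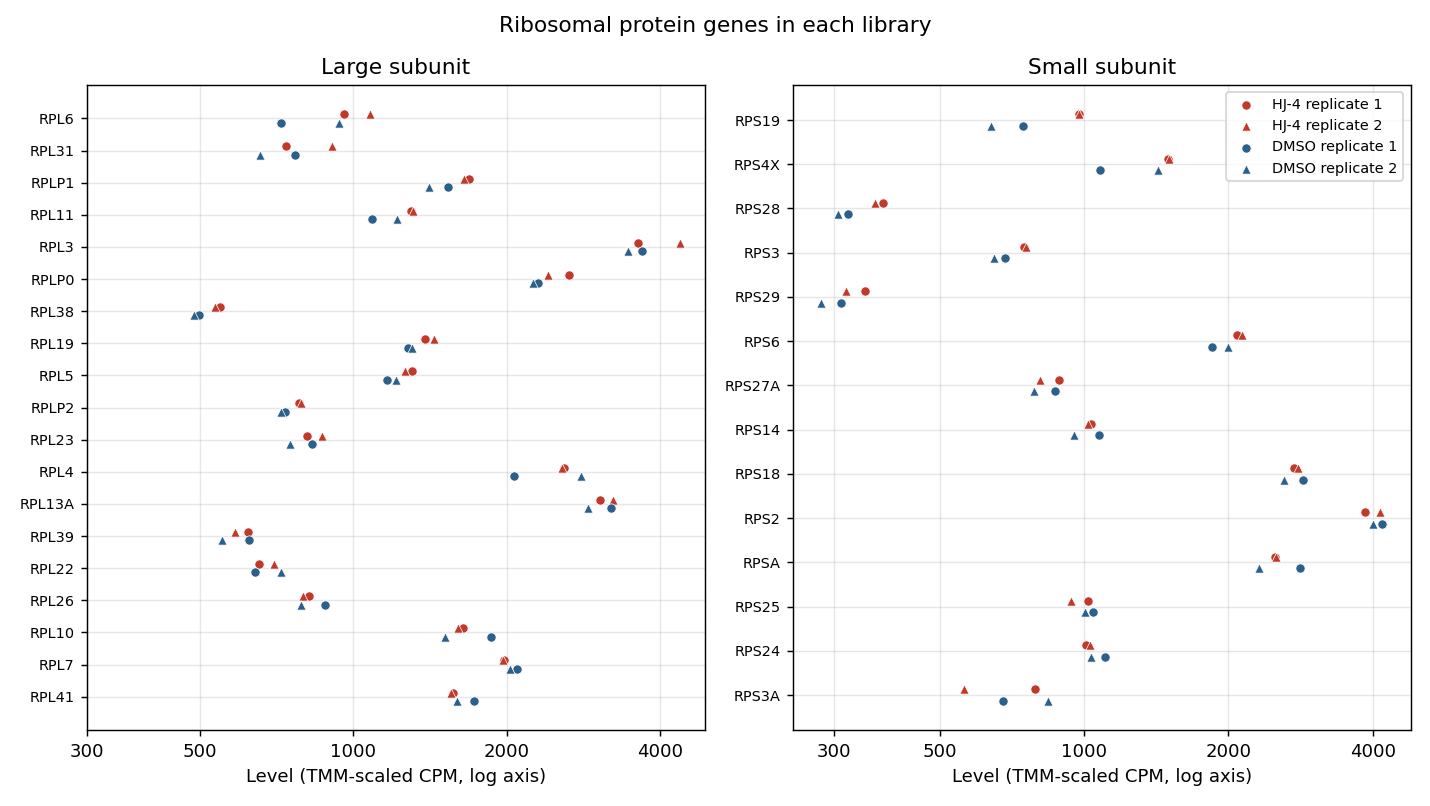
Level in TMM-scaled CPM (log axis) of the 33 described genes in each library, ordered by fold change within each subunit, with HJ-4 in red and DMSO in blue. The HJ-4 points of RPS19 coincide at 976 and 977 and lie to the right of both DMSO points. Of the 33 genes, 14 have both HJ-4 points to the right of both DMSO points, 3 to the left and 16 overlapping groups. Among all genes tested, 25.2% lie to the right and 25.6% to the left. Some of the 33 were picked for a small p or an extreme fold change, which favours separated groups.

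The other genes of the large subunit described for a small p or a high fold change included RPL6, RPL31, RPL19 and RPL38. RPL6 was at 957 and 1077 CPM with HJ-4 and 721 and 939 CPM with DMSO. The lowest HJ-4 value exceeded the highest DMSO value of RPL6 by little, while its DMSO libraries differed by 0.38 on the log2 scale, and the log2 fold change of 0.29 had an interval of -0.09 to 0.68. It was 0.11 without DMSO replicate 1, 0.49 without DMSO replicate 2 and 0.19 when HJ-4 replicate 2 was left out. PTPN11 overlaps its span on the opposite strand. RPL31, a protein at the end of the exit tunnel, was at 738 and 909 CPM with HJ-4 and 768 and 656 CPM with DMSO, with overlapping groups. RPL19, another protein of that region, was at 1384 and 1443 CPM with HJ-4 and 1278 and 1306 CPM with DMSO. RPL38, which in mice is needed for the translation of a subset of Hox mRNAs, was at 546 and 534 CPM with HJ-4 and 498 and 485 CPM with DMSO. RPL19 and RPL38 had narrow gaps within both groups, and each had a log2 fold change of 0.13 (edgeR adjusted p = 0.44 and 0.42).

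The lowest estimates of the large subunit belonged to RPL41, RPL7 and RPL10. RPL41, the smallest protein of the family, was at 1568 and 1557 CPM with HJ-4 and 1726 and 1599 CPM with DMSO. RPL7 was at 1980 and 1963 CPM with HJ-4 and 2101 and 2030 CPM with DMSO. In both the HJ-4 values were under the DMSO values, and the log2 fold change was -0.09 for RPL41 and -0.07 for RPL7 (edgeR adjusted p = 0.60 and 0.67). RPL10, which joins the large subunit late in the cytoplasm, was at 1642 and 1604 CPM with HJ-4 and 1868 and 1512 CPM with DMSO. Its HJ-4 values lay between the DMSO values.

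The catalytic and tunnel proteins had overlapping groups. RPL3, which reaches towards the peptidyl transferase centre, was at 3621 and 4389 CPM with HJ-4 and 3697 and 3465 CPM with DMSO. RPL4, which lines the exit tunnel, was at 2597 and 2570 CPM with HJ-4 and 2069 and 2800 CPM with DMSO. RPL39, a very short protein of the same tunnel, was at 621 and 584 CPM with HJ-4 and 625 and 552 CPM with DMSO. A single library set the spread in RPL3 (HJ-4 replicate 2) and in RPL4 (DMSO replicate 1). Without DMSO replicate 1 the log2 fold change of RPL4 was -0.12, against 0.09 with all libraries. RPL13A, which also takes part in an interferon-dependent block of translation, was at 3059 and 3235 CPM with HJ-4 and 3214 and 2890 CPM with DMSO. RPL22, which in mice is needed for the development of alpha-beta T cells, was at 654 and 697 CPM with HJ-4 and 640 and 722 CPM with DMSO. Neither had an estimate over 0.05 in size.

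The 44 genes not described singly had log2 fold changes between -0.04 and 0.16, none of which passed the adjusted threshold. Levels ran from 121 CPM, in RPS15 with DMSO, to 4389 CPM, in RPL3 with HJ-4, so that every gene was counted at least 3631 times in each library. CPM is not corrected for transcript length, and levels are therefore not compared between genes. The widest gaps between libraries of 1 group were seen in RPL23A, at 899 and 1318 CPM in the DMSO libraries, in RPS3A with HJ-4, and in RPS15, at 169 and 121 CPM in the DMSO libraries.

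The 77 genes lie on 21 chromosomes, with 12 on chromosome 19. In GENCODE v44, 28 of them hold 60 small nucleolar RNA genes within their spans, and the median log2 fold change was 0.05 in these 28 and 0.06 in the other 49. GENCODE names 1588 pseudogenes after the 77 genes, at least 1 for each, of which 0 are in the count table. How reads shared with these copies were counted is not stated, and the levels carry that uncertainty. A span shared with a gene on the opposite strand was found for 33 of the 77, and the median was 0.04 in these and 0.06 in the other 44. Among the 33 genes described, 17 share one: RPL4, RPL5, RPL6, RPL7, RPL10, RPL22, RPL26, RPL31, RPL38, RPS3A, RPS4X, RPS6, RPS25, RPS27A, RPS28, RPS29 and RPSA. A span shared with a tested gene of the same strand was found for 6, of which RPL17, RPL36A and RPS10 meet readthrough genes and RPL26, RPL36 and RPS15A other genes.

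Other proteins of the ribosome and its relatives were compared from lists of names. RACK1, a scaffold protein on the head of the small subunit that the symbol rule leaves out, was at 977 and 1053 CPM with HJ-4 and 835 and 834 CPM with DMSO. Its log2 fold change was 0.28 (95% interval 0.08 to 0.48, adjusted p = 0.23 in edgeR), with no overlap of the groups. FAU, whose product releases a small subunit protein from a ubiquitin-like fusion, had a log2 fold change of 0.04 with overlapping groups. Of 10 paralogs listed by name, 6 passed the filter, 3 with a positive and 3 with a negative estimate. Their median log2 fold change was -0.05. The lowest estimate was -1.12, for RPL3L, which had 8 to 23 counts in a library. The highest was that of RPS27L, a p53-induced relative of RPS27, at 72.8 and 71.2 CPM with HJ-4 and 62.5 and 56.2 CPM with DMSO. This is a log2 fold change of 0.28 (95% interval 0.04 to 0.52, adjusted p = 0.27 in edgeR), while RPS27 itself had -0.03. RPL22L1, the paralog of RPL22, had a log2 fold change of 0.13 and RPL26L1 of -0.20, neither past the adjusted threshold. RPL39L had 0 counts in each library, which allows up to 0.101 CPM in the shallowest of them.

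Translation genes outside the ribosome, 23 listed by name as TOP genes, had a median log2 fold change of 0.09, with 19 positive. Whether each carries the tract at its annotated start is not reported here. Neither edgeR nor DESeq2 called any of them (0 in each direction), while 3 (EEF1A1, EIF3G and EIF3H) were higher and 0 lower with p under 0.05 before adjustment, against 7.93% of all genes in each direction. EEF1A1, the elongation factor that brings aminoacyl-tRNA to the ribosome, had the largest estimate. It was at 16550 and 12841 CPM with HJ-4 and 7644 and 11364 CPM with DMSO (log2 fold change 0.63, 95% interval 0.04 to 1.21, adjusted p = 0.30 in edgeR). The libraries of each group differed widely, yet the groups did not overlap. Of 78 mitochondrial ribosomal protein genes, whose products form the separate ribosome of mitochondria, 34 had a positive estimate and the median was -0.02. By edgeR 0 were called, DESeq2 called 1 in each direction, and before adjustment 4 were higher and 7 lower with p under 0.05. These counts are near the all-gene shares of 7.93% in each direction before adjustment and of 2.58% higher and 1.95% lower by DESeq2. DESeq2's calls, named after their values were seen, were MRPS10, at 62.9 and 60.6 CPM with HJ-4 and 47.5 and 49.2 CPM with DMSO, and MRPL36, at 8.87 and 7.97 CPM with HJ-4 and 17.3 and 17.6 CPM with DMSO. The log2 fold change of MRPL36 was -1.05 (95% interval -1.36 to -0.74, adjusted p = 0.086 in edgeR).

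The 13 genes for TOP and mTORC1 regulators had a median log2 fold change of -0.08, with 4 positive and 9 negative. The HJ-4 libraries were both below the DMSO libraries in 5 and both above in 1, against 25.6% and 25.2% of all genes tested. By edgeR 0 were called. DESeq2 called 1 in each direction, against 2.58% of all genes higher and 1.95% lower. Before adjustment 1 was higher and 1 lower with p under 0.05, beside the same all-gene share of 7.93%. EIF4EBP1 and EIF4EBP2 are named as the genes behind the DESeq2 calls and the p under 0.05, after their values were seen. EIF4EBP1, the repressor of cap-dependent translation that mTORC1 inactivates, was at 100 and 107 CPM with HJ-4 and 78.6 and 70.0 CPM with DMSO. Its relative EIF4EBP2 was at 109 and 107 CPM with HJ-4 and 134 and 140 CPM with DMSO. The log2 fold changes were 0.48 and -0.35 (adjusted p = 0.17 and 0.19 in edgeR, 0.0056 and 0.016 in DESeq2), and the groups of neither gene overlapped. LARP1, which binds TOP tracts, had a log2 fold change of 0.00 and MTOR of -0.04. The 16 chaperones and import factors of ribosomal proteins had a median of 0.05, with 0 called by edgeR or DESeq2 and 0 with p under 0.05 before adjustment.

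**Figure D5:**
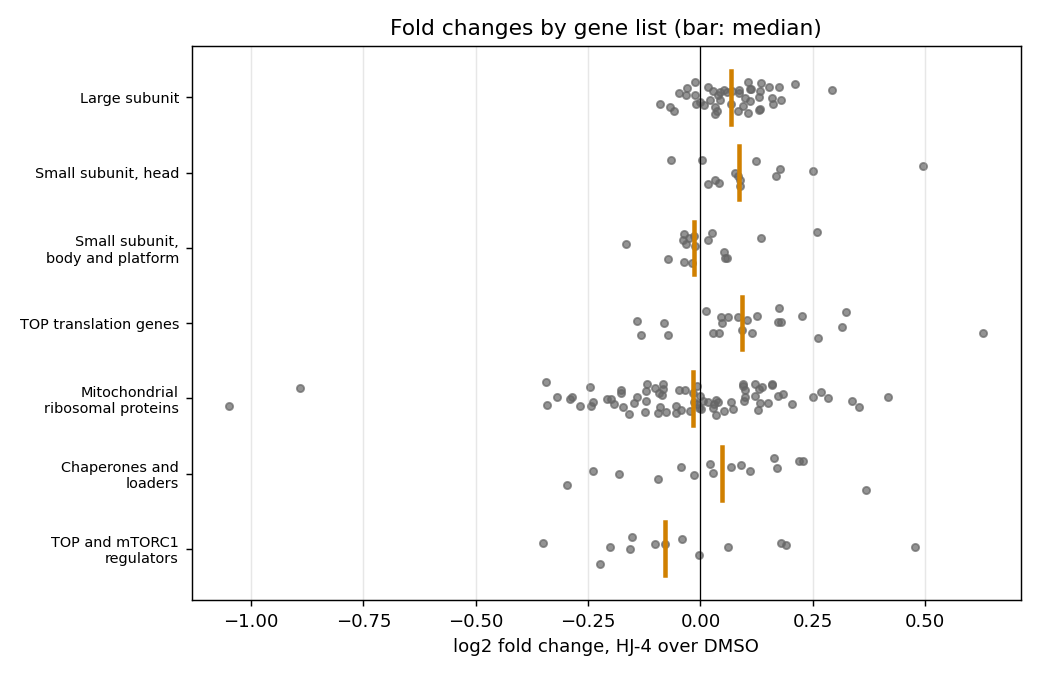
Log2 fold change (HJ-4 over DMSO) of each gene in 7 lists, with medians as orange bars. Medians lie at 0.07 for the large subunit, 0.09 for the head and -0.01 for the rest of the small subunit. They lie at 0.09 for the TOP translation genes and -0.02 for the mitochondrial ribosomal proteins. For the chaperones and loaders the median is 0.05, and for the TOP and mTORC1 regulators -0.08.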

How the data were processed

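Per the labels, total RNA of HCT116 cells was sequenced. The table the authors deposited holds unnormalised counts (integers) for 20263 Ensembl genes in 4 libraries. The study's methods name STAR, featureCounts and biological triplicates, while HISAT2, bedtools and RSEM stand in the submitters' processing notes. The sources used here do not settle which tool produced the counts or how strand was handled, and 2 libraries per group were analysed. Of the identifiers, 20148 were found in GENCODE v44. The methods name limma for testing, and edgeR was used because the values are counts. In R 4.3.3, filterByExpr kept 14044 genes, TMM set the library scale, and edgeR 4.0.16 (glmQLFit, glmQLFTest) compared HJ-4 with DMSO without covariates, p-values being adjusted by Benjamini-Hochberg over all genes tested. Depth was 29769568 to 34359889 counts, at which counting error is small for these genes. Replicates differed beyond counting noise (chi-square divided by its degrees of freedom was 20.1 for HJ-4 and 33.1 for DMSO). Alternatives were DESeq2 1.42.0, voom in limma 3.58.1, other scalings, filters and thresholds, removal of length and GC trends, a replicate block, and leaving out each library. The fits were tested on simulated data, in which estimates were close to the planted changes on average, few changes as small as that of RPS19 were called, and false calls exceeded the nominal rate, more so with DESeq2 than with edgeR. Genes described singly had the 10 smallest p, the 3 highest or lowest fold changes or the 3 highest mean counts of a subunit, or were among 18 chosen by role, 33 in all. The genes and lists were chosen with earlier results of these data known.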

Additional observations from a re-analysis of the deposited data

How the results depend on the processing

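No ribosomal protein gene other than RPS19 was called under any of the 14 alternative fits, and RPS19 only by DESeq2. Over all genes, edgeR called 7 genes, and the count was 31 with the replicate block, 12 with no filter on low counts, 29 with the GC trend removed, 0 with both trends removed and the replicate block, 67 at an adjusted p under 0.1, and 574 with DESeq2's Wald test. Leaving out 1 library gave 0 to 88 (0 without either HJ-4 library, 88 without DMSO replicate 1 and 34 without DMSO replicate 2), the lone library being assumed to vary like the other group. The cause of these changes was not tested. The replicate numbers pair nothing in the labels, and the gap between replicates 1 and 2 correlated across genes with r = -0.06 between the groups. The replicate block changed no ribosomal protein gene's call. Leaving out 1 library moved the median log2 fold change of the 77 genes between -0.011 and 0.108 and that of the small subunit between -0.024 and 0.108. That of the large subunit stayed between 0.017 and 0.109. The log2 ratio of large over small subunit was 0.0022 higher with HJ-4 without the 3 most abundant genes of each. Of the 33 genes described, 21 kept the sign of their estimate in every alternative. The 12 that did not had estimates of at most 0.17 in size. With total counts, RPS14 was at -0.011 and RPS18 at -0.012. With the length trend removed, RPL39 was at -0.030 and RPS18 at -0.031. With the GC trend removed, RPL39 was at -0.012 and RPS27A at -0.022. With both removed and the replicate block, RPL39 was at -0.072, RPS18 at -0.013 and RPS27A at -0.044. Leaving out 1 library gave -0.20 to 0.10 for RPL10, -0.032 to 0.12 for RPL13A, -0.096 to 0.075 for RPL22, -0.13 to 0.034 for RPL26, -0.054 to 0.13 for RPL39, -0.12 to 0.32 for RPL4, -0.066 to 0.11 for RPS14, -0.049 to 0.084 for RPS18, -0.100 to 0.027 for RPS2, -0.040 to 0.11 for RPS27A, -0.42 to 0.046 for RPS3A and -0.17 to 0.11 for RPSA. Of the 21 that kept their sign, 15 moved by over 1.5 times when 1 library was left out, among them RPL6 (0.11 to 0.49), RPS4X (0.072 to 0.47), RPL31 (0.039 to 0.37), RPL3 (0.0033 to 0.31), RPL11 (0.094 to 0.26) and RPS29 (0.10 to 0.24), and RPS19, RPS28, RPS3, RPL5, RPL38 and RPLP2 moved by less. Each of the 77 genes was counted at least 3631 times in a library.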
